A study of Mus musculus with 138 samples.

Results

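The lambdoid suture of the mouse skull joins the paired parietal bones to the interparietal bone behind them. Each bone grows into the suture at an osteogenic front (OF), and the suture mesenchyme (SM) lies between the fronts. The comparison described here set the interparietal OF against the parietal OF at E18.5, late in embryonic life. Its members were the libraries that the labels assign to the lambdoid suture at that age and to 1 of these 2 fronts, 10 of the 138 samples of the series, 5 for each front. All embryos were of strain C57BL/6J, and the labels name neither an allele nor a treatment, so both fronts and all other captured groups used here share an unmodified background. Tissue of each region was cut out by laser capture, its RNA was amplified, and reads were counted per gene. Interparietal, parietal and SM libraries with the same replicate number carry the same litter identifier in the labels, and 5 different identifiers occur, so the libraries were treated as 5 pairs of fronts with 5 matching SM libraries. The identifiers of pairs 3 and 4 differ only in their last number, so the 5 pairs may come from 4 litters. The identifiers of pairs 3, 4 and 5 begin alike, while those of pairs 1 and 2 each begin otherwise.

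The bones that meet at this suture differ in origin. The parietal bone forms from mesoderm, while the interparietal bone has a neural crest part in the middle and mesodermal parts at its sides. At an OF, mesenchymal precursors become preosteoblasts under the transcription factors Runx2 and Sp7, and then lay down a collagen matrix that mineralizes. BMP, Wnt, hedgehog and FGF ligands and their secreted inhibitors set how fast this happens at the edge of a growing bone.

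The front libraries held between 8467758 and 10439953 counts assigned to genes, and the 5 SM libraries between 7305627 and 8376486. At this depth 1 count was worth between 0.0958 and 0.118 CPM (counts scaled to a common library size) in a front library before TMM scaling. Mitochondrial genes took between 15.9% and 19.3% of counts in interparietal, between 17.3% and 21.6% in parietal and between 15.95% and 22.9% in SM libraries. Both fronts carried the osteoblast genes that define an OF. Sp7, the osteoblast transcription factor, stood at 427 ± 43.4 CPM in interparietal OF and 489.8 ± 38.1 CPM in parietal OF against 31.3 ± 16.52 CPM in SM (SD, n = 5 each). Ibsp, which encodes bone sialoprotein, stood at 8002 ± 1622 and 8699.5 ± 799 CPM against 51.3 ± 78.3 CPM. On the leading component of the normalized values, which held 61.5% of the variance, all front libraries lay apart from SM. Interparietal libraries 1 and 2 lay at -16.03 and -17.1 on it, nearer to SM (between 47.6 and 62.9) than the other 8 front libraries (between -34.6 and -26.0). SM library 3 stood apart on the second component and parietal library 4 on the third.

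**Figure D1:**
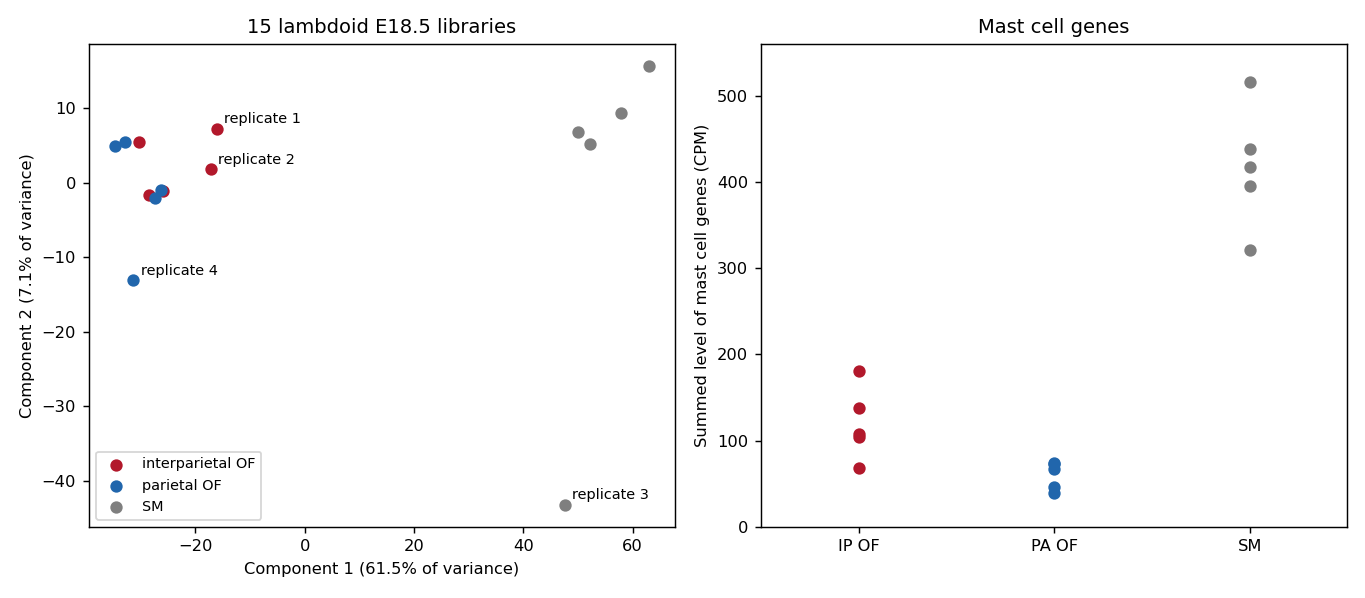
Left, the 15 lambdoid E18.5 libraries on the first and second component of their normalized log2 values, with the share of variance on each axis and the replicate number beside the libraries that stand apart. Right, the level of 6 mast cell genes summed in each library, in CPM, which was between 68.0 and 181 in interparietal OF, between 39.6 and 74.5 in parietal OF and between 321 and 516 in SM.

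Of 17582 genes tested, 16 were higher in interparietal OF (0.0910%) and 13 were higher in parietal OF (0.0739%) at an adjusted p below 0.05 with edgeR's quasi-likelihood test. The genes higher at the interparietal front included Emx2, Bmp5 and Cdh8, a patterning factor, a BMP ligand and a cadherin. The genes higher at the parietal front included Chrdl1, a BMP antagonist, and Enpp1, an enzyme that makes the mineralization inhibitor pyrophosphate. For comparison, the same fit called 31.3% of genes between interparietal OF and SM and 36.3% between parietal OF and SM. At an unadjusted p below 0.05, 633 genes were higher in interparietal OF and 501 in parietal OF, and the median log2 fold change (log2FC, interparietal minus parietal) over all genes was 0.0028. Without the pairing by number, the calls were 8 and 3. Scaling to total counts in place of TMM gave 36 and 11 calls. With the libraries of all 20 captured groups in the fit, the calls were 1 and 1 without and 1 and 2 with the pairing. Those fits also had another filter, at least 1 CPM in over 10% of libraries, which kept 19768 genes. Other settings gave more calls, 23 and 37 with the front libraries alone, 24 and 28 with limma-voom, 66 and 33 with DESeq2, 32 and 35 without SM library 3 and 90 and 75 without the low-count filter. Without pair 1 the calls fell to 3 and 2, without pair 2 to 6 and 5, and without pair 5 to 15 and 8.

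All 16 genes higher in interparietal OF were higher there in 5 of 5 pairs, and all 13 genes higher in parietal OF were higher there in 5 of 5 pairs. The values of both fronts did not overlap for 12 of the 16 and 8 of the 13 genes, against 1.30% of all genes tested. These shares follow from the choice of the genes by the same values. Called differences were larger in the interparietal direction, with a median absolute log2FC of 1.34 against 0.72, and 10 of 16 against 3 of 13 genes reached a 2-fold difference. The same lean was present over all genes tested, where the middle 95% of log2FC values ran from -0.83 to 1.18. A gene near 0 in parietal OF, as Ptgds and Emx2, could be kept by the filter through its interparietal and SM libraries. The last gene inside the threshold was Acss3 (adjusted p = 0.0499) and the first outside was Mdga2 (log2FC 1.21, adjusted p = 0.0531).

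**Figure D2:**
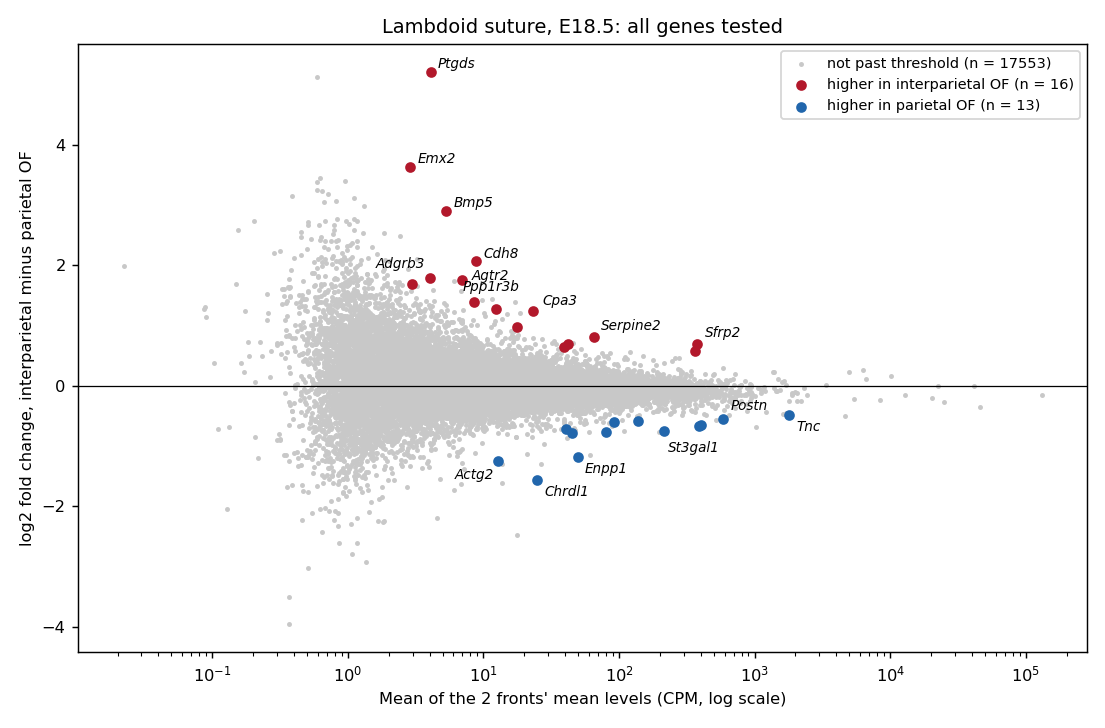
The log2 fold change of each gene (interparietal minus parietal OF, lambdoid E18.5) against its mean level in both fronts in CPM on a log scale. Grey points are the genes that did not pass the threshold, red points the 16 genes higher in interparietal OF and blue points the 13 genes higher in parietal OF.

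Among developmental regulators, Emx2 was higher at the interparietal front. It encodes a homeobox transcription factor that patterns the forebrain, the urogenital tract and the limb girdles. Its level was 6.75, 9.84, 5.04, 3.09 and 2.14 CPM in interparietal libraries 1 to 5 and 0.112, 0, 0.305, 1.09 and 0.391 CPM in parietal libraries 1 to 5. Every interparietal value lay above every parietal value. The log2FC was 3.64 ± 0.72 (SE, adjusted p = 0.0365). The counts summed over libraries were 233 against 17, a ratio of 15.03 per total count (exact 95% interval from 9.19 to 26.2). This interval treats each read as a separate draw and leaves out the spread between libraries. The call was lost in 11 of the 15 fits that left out 1 pair or 1 front library, and its log2FC lay between 3.00 and 4.59 over all 15. Emx2 lies on chromosome 19, at chr19:59458372-59465357 on the plus strand of mm10, and shares 264 bases at its start with the minus-strand gene Emx2os (chr19:59425104-59458635). Reads were counted without strand and reads that overlapped more than 1 gene were left out, so reads from exons shared by both genes were counted for neither. Emx2os had 37, 28, 39, 26 and 49 counts in the interparietal and 6, 12, 10, 0 and 6 counts in the parietal libraries (log2FC 2.49 ± 0.57, adjusted p = 0.0791).

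Of 24 BMP pathway genes tested, 1 was higher at each front and 22 passed in neither direction, with a list median log2FC of -0.03. Over all genes tested the shares were 0.0910% and 0.0739% and the median 0.0028. Bmp5, a BMP ligand whose loss in the short ear mouse changes cartilage and bone shape, was the ligand that rose. It reached 9.64, 12.7, 5.49, 12.9 and 6.29 CPM in the interparietal libraries and 1.12, 0.117, 1.32, 2.67 and 1.07 CPM in the parietal libraries. The lowest interparietal value was above the highest parietal value, and the log2FC was 2.91 ± 0.43 (adjusted p = 0.00207). The gene spans chr9:75775364-75900310. The adjusted p was 0.0572 without pair 1. Chrdl1, which encodes the secreted BMP antagonist chordin-like 1, had the opposite pattern. It reached 34.8, 25.9, 42.1, 43.5 and 38.7 CPM in the parietal libraries and 13.1, 12.1, 17.4, 8.47 and 12.8 CPM in the interparietal libraries. The log2FC was -1.56 ± 0.20 (adjusted p = 0.000881), and the gene lies at chrX:143285674-143394262. Other ligands of the family did not pass, among them Bmp4 at 29.6 ± 3.27 CPM in interparietal OF and 29.8 ± 6.67 CPM in parietal OF, and Bmp2 at 40.2 ± 6.61 and 46.3 ± 4.38 CPM.

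Of 30 Wnt pathway genes tested, 2 were higher in interparietal OF (0.0910% of all genes) and none in parietal OF (0.0739% of all genes), with a list median log2FC of 0.23. Wnt5a, a ligand of the non-canonical branch, was at 55.1, 51.8, 53.8, 43.2 and 55.9 CPM in the interparietal and 28.1, 23.5, 34.3, 36.1 and 40.9 CPM in the parietal libraries. The groups did not overlap, and the log2FC was 0.70 ± 0.14 (adjusted p = 0.0475). Sfrp2, a secreted modulator of Wnt signaling, was at 709, 619, 383, 287 and 374 CPM in the interparietal and 276, 340.3, 279, 214 and 298 CPM in the parietal libraries. Its interparietal values were highest in libraries 1 and 2, its groups overlapped, and the log2FC was 0.70 ± 0.13 (adjusted p = 0.0204). Both calls were lost in a majority of the leave-out fits, 12 of 15 for Wnt5a and 8 of 15 for Sfrp2. Axin2, a common readout of canonical Wnt signaling, stood at 44.9 ± 12.5 CPM in interparietal OF and 45.8 ± 8.53 CPM in parietal OF.

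Cdh8 and Adgrb3, which encode proteins of the cell surface, were higher at the interparietal front. Cdh8 encodes a type II classical cadherin known from the developing brain, and lies at chr8:99024471-99416471. Its level was 16.9, 10.8, 16.6, 11.4 and 14.95 CPM in the interparietal libraries and 1.79, 4.57, 4.28, 2.55 and 4.20 CPM in the parietal libraries. No values overlapped, the log2FC was 2.06 ± 0.27 (adjusted p = 0.000881), and the call held in all 15 leave-out fits. Adgrb3 encodes an adhesion G protein-coupled receptor. It was at 8.43, 5.22, 6.61, 8.17 and 2.73 CPM in the interparietal and 1.68, 0.936, 2.44, 2.55 and 1.27 CPM in the parietal libraries (log2FC 1.78 ± 0.26, adjusted p = 0.00207). The lowest interparietal library was just above the highest parietal one.

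Serpine2 encodes a secreted inhibitor of thrombin and urokinase. It was at 73.0, 104, 69.7, 67.8 and 102 CPM in the interparietal and 48.6, 51.3, 40.7, 44.5 and 50.0 CPM in the parietal libraries. The groups lay apart, the log2FC was 0.81 ± 0.12 (adjusted p = 0.00207), and the call held in all 15 leave-out fits. Agtr2, the type 2 angiotensin II receptor, was at 22.0, 12.9, 8.41, 6.87 and 4.87 CPM in the interparietal and 4.04, 1.87, 4.38, 1.46 and 2.83 CPM in the parietal libraries (log2FC 1.76 ± 0.31, adjusted p = 0.0135). Library 1 stood highest. A further 3 genes had roles in metabolism or ion channels. Ppp1r3b, which targets protein phosphatase 1 to glycogen, averaged 12.2 ± 2.96 CPM in interparietal OF and 4.71 ± 1.86 CPM in parietal OF (log2FC 1.40 ± 0.24). Cacna2d2, an auxiliary subunit of voltage-gated calcium channels, averaged 23.9 ± 8.67 and 11.7 ± 1.67 CPM (log2FC 0.97 ± 0.19). Acss3, a mitochondrial acyl-CoA synthetase, averaged 4.50 ± 1.07 and 1.40 ± 0.422 CPM (log2FC 1.68 ± 0.35). None of these 3 genes overlapped between the fronts.

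The remaining called genes of the interparietal front were 3 non-coding transcripts of 1 imprinted domain on chromosome 12 and 2 genes known from other cell types. Rian, a maternally expressed RNA, was at 462, 415, 442, 410.0 and 431 CPM in the interparietal and 286, 224, 271, 353 and 316 CPM in the parietal libraries (log2FC 0.58 ± 0.11, adjusted p = 0.0346). Mirg, a host RNA for a microRNA cluster, averaged 47.9 ± 11.1 against 30.2 ± 5.79 CPM (log2FC 0.64 ± 0.13, adjusted p = 0.0441). Gm24564 averaged 17.4 ± 4.97 against 7.27 ± 3.63 CPM (log2FC 1.28 ± 0.26, adjusted p = 0.0441). It lies inside Rian, at chr12:109631074-109631148 within chr12:109603808-109661716. These 3 genes fell outside the rule for naming and were included after their values were seen.

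Ptgds, the lipocalin-type prostaglandin D synthase of the arachnoid, had the largest fitted difference of the called genes, and 1 library held most of its counts. It was at 33.5, 0.237, 0.785, 1.30 and 4.51 CPM in the interparietal and 0.336, 0, 0, 0 and 0.293 CPM in the parietal libraries. Summed counts were 338 against 6, a ratio of 61.8 (exact 95% interval from 28.1 to 170). Without interparietal library 1 they were 60 against 6, a ratio of 13.6 (interval from 5.90 to 38.5). These intervals treat each read as a separate draw and leave out the spread between libraries. The adjusted p of Ptgds was 0.00207 with all libraries, 0.125 without interparietal library 1, 0.0674 without parietal library 1 and 0.379 without pair 1. Ptgds was the 1 gene called of 8 tested in the dura mater and meninges list, against 0.0910% of all genes in that direction. Of the 8, 4 had a positive and 4 a negative log2FC, with a list median of 0.02. At an unadjusted p below 0.05, 3 were higher in interparietal OF and none in parietal OF, against 633 and 501 of 17582 genes. The summed level of the list was 210.5, 150.5, 129.7, 123.0 and 123.9 CPM in interparietal and 144.2, 137.4, 137.1, 127.6 and 130.1 CPM in parietal libraries. It was lower in interparietal OF in pairs 3, 4 and 5 and higher there in the other pairs. Cpa3, a protease of mast cell granules, was at 48.7, 42.6, 30.04, 28.9 and 15.1 CPM in the interparietal and 16.9, 15.6, 17.9, 8.63 and 9.28 CPM in the parietal libraries (log2FC 1.24 ± 0.19, adjusted p = 0.00357). It was the 1 gene called of 6 mast cell genes tested, against 0.0910% of all genes in that direction. All 6 had a positive log2FC, against 50.4% of all genes, with a median of 1.00. All 6 had an unadjusted p below 0.05, against 633 of all 17582 genes in that direction, and the other 5 did not pass the adjusted threshold. Their part in the other differences was not tested. In tissue cut out whole, more cells of a type and more RNA per cell cannot be told apart.

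**Figure D3:**
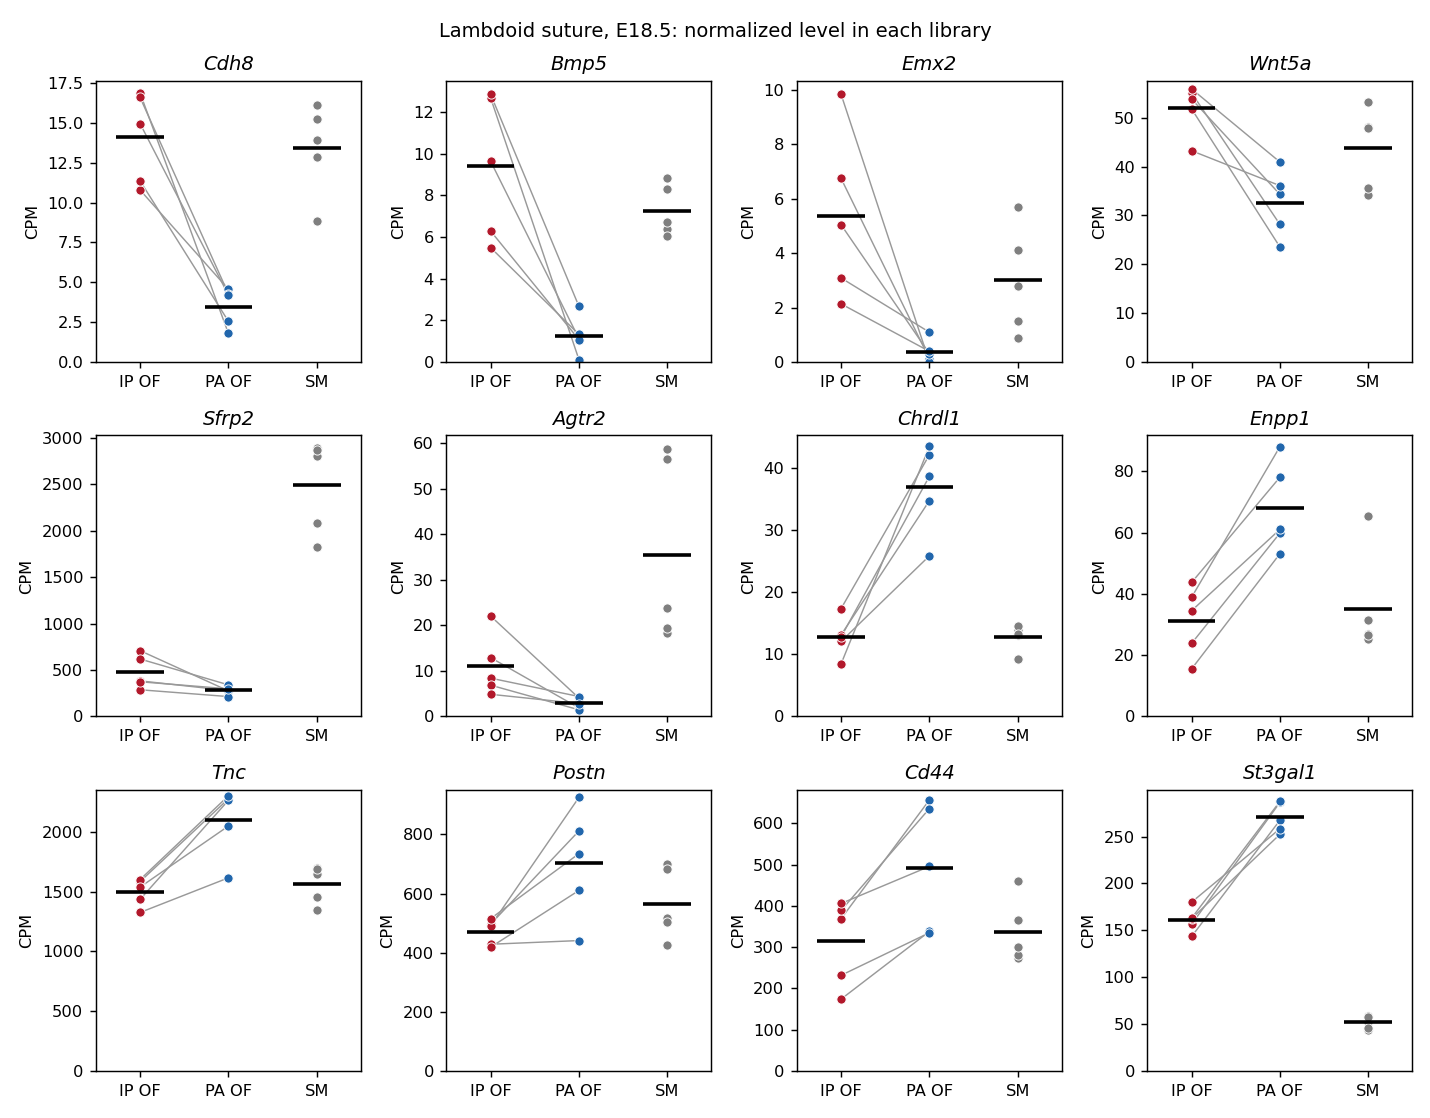
Level in CPM of 12 called genes in each lambdoid E18.5 library of interparietal OF (IP OF), parietal OF (PA OF) and SM. Grey lines join the 2 fronts of a pair and bars are means. All lines fall for Cdh8, Bmp5, Emx2, Wnt5a, Sfrp2 and Agtr2 and rise for Chrdl1, Enpp1, Tnc, Postn, Cd44 and St3gal1.

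Tnc, Postn and Cd44 were higher at the parietal front. Tnc encodes tenascin C, a matrix glycoprotein of growing bone edges and tendon. It was at 2278, 1617, 2266, 2304 and 2051 CPM in the parietal and 1585, 1327, 1436, 1602 and 1539 CPM in the interparietal libraries (log2FC -0.48 ± 0.08, adjusted p = 0.00657). The lowest parietal value was just above the highest interparietal value. Postn encodes periostin of the periosteum, and was at 812, 441, 925, 735 and 611 CPM in the parietal and 497, 429, 491, 515 and 419 CPM in the interparietal libraries (log2FC -0.55 ± 0.11, adjusted p = 0.0422). Pair 2 had nearly equal values. Cd44, the hyaluronan receptor, was at 656, 338, 335, 636 and 495 CPM in the parietal and 369, 174, 232, 389 and 406 CPM in the interparietal libraries (log2FC -0.66 ± 0.12, adjusted p = 0.0147). The groups overlapped.

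Among enzymes of the parietal front, Enpp1 was at 59.9, 53.1, 61.1, 78.1 and 88.1 CPM in the parietal and 23.9, 15.5, 34.5, 43.7 and 38.9 CPM in the interparietal libraries. No values overlapped, and the log2FC was -1.18 ± 0.17 (adjusted p = 0.00207, and 0.0572 without pair 1). St3gal1, a sialyltransferase of O-linked glycans, was at 287, 267, 252, 288 and 258 CPM in the parietal and 157, 143, 162, 163 and 180.0 CPM in the interparietal libraries. Its log2FC was -0.75 ± 0.10 (adjusted p = 0.000881), and the call held in all 15 leave-out fits. The genes whose call held in all of these fits were Chrdl1, St3gal1, Cdh8 and Serpine2, and the other 25 lost it in between 1 and 14 of them.

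The other 7 genes of the parietal front included regulators and cytoskeletal genes. Sox5, a transcription factor of chondrocyte differentiation, was at 48.7, 41.9, 68.1, 50.8 and 41.9 CPM in the parietal and 30.1, 27.9, 36.1, 35.2 and 23.3 CPM in the interparietal libraries (log2FC -0.72 ± 0.13, adjusted p = 0.0230). It was the 1 gene to pass of 17 cartilage genes tested, against 0.0739% of all genes in that direction. Creb5, a transcription factor of the CREB family, averaged 99.1 ± 36.2 CPM in parietal OF and 60.7 ± 28.1 CPM in interparietal OF (log2FC -0.76 ± 0.15). Actg2, the enteric smooth muscle actin, averaged 18.2 ± 3.15 and 7.62 ± 1.84 CPM (log2FC -1.25 ± 0.24). Tagln2, which encodes transgelin 2, averaged 472 ± 119.7 and 301 ± 108 CPM (log2FC -0.68 ± 0.14). The small GTPase gene Mras (log2FC -0.60 ± 0.11), the clathrin adaptor subunit gene Ap1s2 (log2FC -0.78 ± 0.16) and Fam135a (log2FC -0.59 ± 0.11) completed the group.

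Of 27 osteoblast genes tested, Postn was the 1 that passed, against 0.0739% of all genes in that direction, and 25 of 27 had a negative log2FC, against 49.6% of all genes tested, with a list median of -0.21. The summed level of the list was between 60209 and 76172 CPM in interparietal and between 71547 and 85764 CPM in parietal OF, lower in interparietal OF in 4 of 5 pairs. Runx2 averaged 812 ± 38.1 CPM in interparietal OF and 900.1 ± 76.2 CPM in parietal OF (log2FC -0.15 ± 0.12, adjusted p = 0.919). Col1a1, the main bone collagen gene, averaged 22598 ± 1528 and 27205 ± 2309 CPM (log2FC -0.27 ± 0.08, adjusted p = 0.364). It passed in 2 other settings, with limma-voom (adjusted p = 0.0325) and without the low-count filter (adjusted p = 0.00745). Spp1, which encodes osteopontin, averaged 63.5 ± 33.4 and 89.5 ± 10.1 CPM (log2FC -0.60 ± 0.29), and Dmp1, a gene of osteocytes, 43.6 ± 33.8 and 43.4 ± 15.96 CPM (log2FC -0.17 ± 0.50). Mmp13, a collagenase of late osteoblasts, averaged 3.50 ± 0.670 and 7.25 ± 5.98 CPM (log2FC -0.77 ± 0.47). Bglap, which encodes osteocalcin, had 1 and 6 counts in all and was not kept by the filter.

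None of 12 hedgehog genes and none of 18 FGF genes tested passed the threshold, which 0.0910% and 0.0739% of all genes passed in the 2 directions. Ihh, the hedgehog ligand of osteoblasts, averaged 18.6 ± 4.44 and 19.9 ± 2.99 CPM (log2FC -0.10 ± 0.28). Its receptor gene Ptch1 had a log2FC of -0.11 ± 0.16, the effector gene Gli1 one of 0.16 ± 0.15 and the inhibitor gene Hhip one of -0.06 ± 0.35. Fgfr2 had a log2FC of -0.11 ± 0.12. The transcription factor genes Twist1 and Msx2, which are linked to craniosynostosis, had log2FC values of 0.29 ± 0.16 and 0.29 ± 0.14. Mest (log2FC 0.19 ± 0.14) and Top2a, a gene of dividing cells (log2FC 0.04 ± 0.16), also did not pass. An adjusted p above the threshold does not show that these levels were equal.

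Of 510 genes in 30 lists, 392 were tested and 10 passed, 6 higher in interparietal OF and 4 higher in parietal OF, against 0.0910% and 0.0739% of all genes tested. The lists were chosen with earlier results of these data known, so these counts are a description. In 22 lists no gene passed, among them skeletal muscle (9 tested), cell cycle (20 tested), fibrillar and basement collagens (20 tested) and Hox genes (1 tested). Of 18 crest and frontonasal patterning factors tested, none passed either (list median log2FC 0.12). Emx2 was the 1 to pass of 17 cranial mesoderm and other patterning factors (list median 0.12), against 0.0910% of all genes in that direction. Lists for cells other than osteoblasts had medians on both sides of 0. All 11 endothelial genes had a negative log2FC (median -0.49), against 49.6% of all genes, and 6 of them had an unadjusted p below 0.05, against 501 of all 17582 genes in that direction. Their summed level was between 180.3 and 265 CPM in interparietal and between 259 and 314 CPM in parietal OF. The 9 skeletal muscle genes had a median of 0.62 and a summed level between 15.3 and 83.4 CPM in interparietal and between 9.47 and 51.0 CPM in parietal OF, highest in library 1 of each. No gene of either list passed the threshold.

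**Figure D4:**
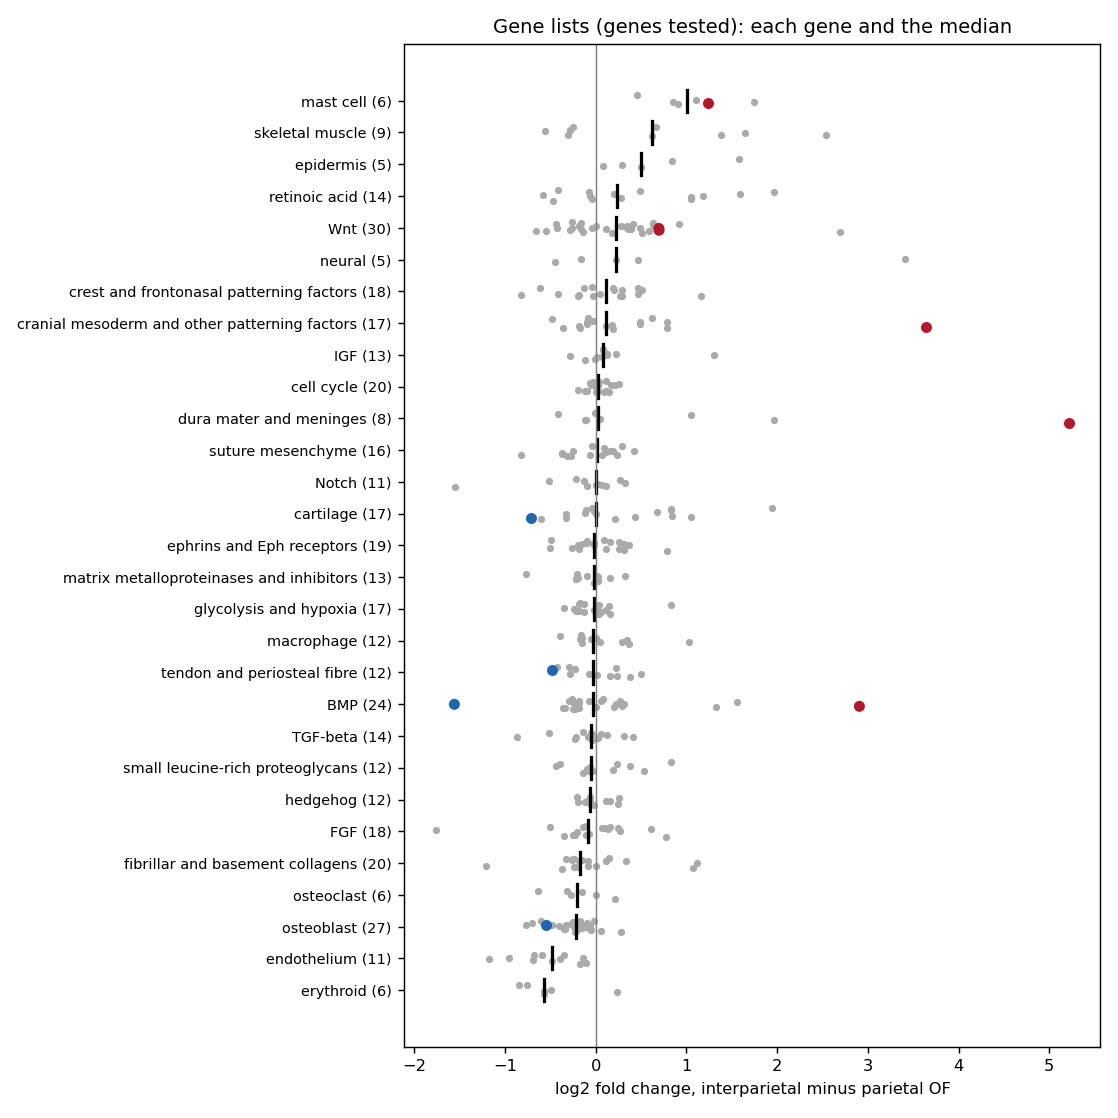
The log2 fold change (interparietal minus parietal OF, lambdoid E18.5) of each tested gene in the lists with at least 3 tested genes. Black bars are list medians, red and blue points are genes that passed the threshold. Most medians lie near 0, the mast cell list is highest at 1.00 and the erythroid list lowest at -0.57.

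The SM between the fronts gave each called gene a further level. Of the 16 genes higher in interparietal OF, 11 had a mean in SM above both fronts and 5 a mean between them. The second set was Cdh8, Bmp5, Ptgds, Emx2 and Wnt5a. Cdh8 averaged 13.4 ± 2.84 CPM in SM, close to its 14.1 ± 2.88 CPM in interparietal OF (log2FC interparietal minus SM 0.10), while parietal OF was lower (log2FC parietal minus SM -1.96). Adgrb3 in contrast reached 44.5 ± 3.86 CPM in SM and Sfrp2 2497 ± 500.5 CPM, far above either front. All 16 were lower in parietal OF than in SM with the same test, and 10 were lower in interparietal OF than in SM, where 36.3% and 31.3% of all genes were called in either direction. These counts share the front libraries with the first comparison, and interparietal libraries 1 and 2 were also those nearest to SM on the leading component. Pairs 1 and 2 are also those whose identifiers begin otherwise than in the remaining pairs, and the part of this was not tested. Of 16 suture mesenchyme genes tested, 8 had a positive and 8 a negative log2FC (median 0.01). None passed, against 0.0910% and 0.0739% of all genes. At an unadjusted p below 0.05, none was higher in interparietal OF and 5 were in parietal OF, against 633 and 501 of 17582 genes. The summed level of the list was between 4498 and 5900 CPM in interparietal and between 5037 and 5904 CPM in parietal OF. Whether more SM was captured with the interparietal front was not tested. Without pairs 1 and 2, no gene passed the threshold with edgeR, while 293 and 326 genes had an unadjusted p below 0.05. All 28 of the called genes that were still tested kept their direction. This follows from their choice, as each had 1 direction in 5 of 5 pairs.

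Of the 13 genes higher in parietal OF, 6 had a mean in SM below both fronts, 6 between them and 1, Sox5, above both. Against SM, 11 of the 13 were called higher and 1 lower in parietal OF, and 5 were called higher and 2 lower in interparietal OF. Of all genes, 36.3% and 31.3% were called in either direction at the parietal and the interparietal front. These counts too share the front libraries with the first comparison. St3gal1, Fam135a, Mras, Tagln2 and Ap1s2 were called higher in both fronts than in SM. Chrdl1 averaged 12.8 ± 2.10 CPM in SM, close to interparietal OF and below parietal OF (log2FC parietal minus SM 1.53, interparietal minus SM -0.02). Enpp1 and Tnc had the same form, at 35.2 ± 17.1 and 1568 ± 159 CPM in SM. Sox5 reached 118 ± 8.40 CPM in SM.

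The same contrast at E16.5 used 10 other front libraries with other litter identifiers. Those of all pairs but pair 5 differ only in their last number, so these pairs may come from 1 litter. There, 702 genes were higher in interparietal OF (4.02% of 17457) and 513 in parietal OF (2.94%). Leaving out 1 pair gave between 235 (without pair 3) and 993 (without pair 5) in the first direction and between 90 and 1032 in the second, without the same pairs. Of the 16 genes higher in interparietal OF at E18.5, 15 had the same direction at E16.5 and 10 passed the threshold in that direction. Of the 13 genes higher in parietal OF, 12 had the same direction and 8 passed. Bmp5 averaged 5.55 ± 0.868 CPM in interparietal OF and 0.425 ± 0.433 CPM in parietal OF at E16.5 (log2FC 3.68 ± 0.44). Emx2 averaged 3.17 ± 0.877 and 0.415 ± 0.324 CPM (log2FC 2.85 ± 0.53), and Cdh8 24.7 ± 4.94 and 7.43 ± 3.94 CPM (log2FC 1.83 ± 0.24). Chrdl1 averaged 28.6 ± 4.93 and 61.7 ± 11.9 CPM (log2FC -1.11 ± 0.15), and Enpp1 5.30 ± 2.31 and 17.9 ± 3.24 CPM (log2FC -1.81 ± 0.24). Ptgds did not pass at E16.5 (log2FC 0.87 ± 0.83, adjusted p = 0.617), nor did Cpa3 (log2FC 1.22 ± 0.70, adjusted p = 0.380). Creb5 was at 35.9 ± 10.1 and 34.5 ± 10.7 CPM there (log2FC 0.09 ± 0.43).

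**Figure D5:**
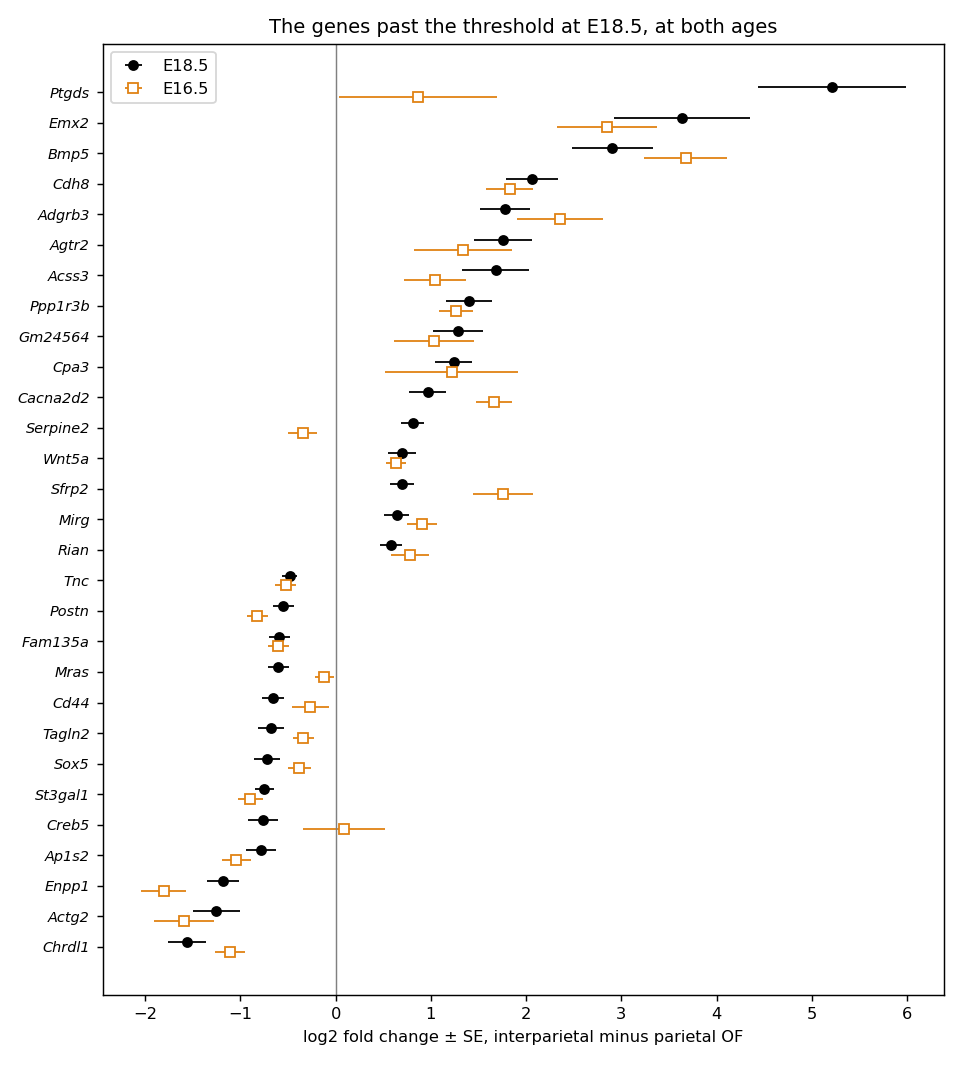
The log2 fold change (interparietal minus parietal OF) with its SE for the 29 genes that passed the threshold at E18.5 (filled circles) and for the same genes at E16.5 (open squares), 5 pairs at each age. All but Serpine2 and Creb5 have the same sign at both ages.

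Tested over the 30 lambdoid libraries of both ages, the contrast itself changed for 9 of 19045 genes (0.0473%). Serpine2 was the 1 gene called at E18.5 among them. At E16.5 it was at 67.2, 68.9, 46.9, 53.8 and 83.1 CPM in the interparietal and 97.4, 97.0, 62.2, 80.8 and 67.4 CPM in the parietal libraries. It was lower in interparietal OF in 4 of 5 pairs, all but pair 5. Those 4 pairs are the ones that may come from 1 litter, and the part of litter was not tested. The change between the ages was 1.17 ± 0.20 on the log2 scale (adjusted p = 0.0128, and 0.0665 without pair 5 of E18.5). The difference of Eln, which encodes elastin, was smaller at E18.5. Eln averaged 105 ± 15.9 CPM in interparietal OF and 55.4 ± 16.9 CPM in parietal OF at E16.5, and 105 ± 28.6 and 109.6 ± 18.1 CPM at E18.5 (change -1.04 ± 0.19, adjusted p = 0.0162). Ltbp1, which binds latent TGF-beta, had the same form, with log2FC values of 0.80 ± 0.10 at E16.5 and -0.04 ± 0.11 at E18.5 (adjusted p = 0.0162). Without pair 5 of E18.5, none of the 9 genes was called by edgeR, and 537 genes had a larger and 686 a smaller value at E18.5 at an unadjusted p below 0.05. The other genes with a smaller value at E18.5 were Dpp6, Cttnbp2, Grm7, Mrgprb2 and Gm43119, and Gm43921 had a larger one. For the other 28 genes called at E18.5, a difference between the ages was not called.

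At the coronal suture, the frontal and the parietal bone meet. Frontal OF was higher than parietal OF for 3.87% of 16470 genes tested there at E18.5 and lower for 2.19%, or 637 and 360 genes, and between 367 and 781 and between 121 and 701 genes without 1 pair. These front libraries held between 20713756 and 29099736 counts, against at most 10439953 in a lambdoid one. Several of the coronal pairs have identifiers that differ only in their last number. The part of depth or litter in the number of calls was not tested. Of the 16 genes higher in interparietal OF of the lambdoid suture, 14 were tested, of which 10 had a positive fitted log2FC, frontal minus parietal OF, and 4 a negative one. The threshold was passed by 4, all higher in frontal OF, namely Bmp5 (log2FC 1.32, adjusted p = 0.00375), Ppp1r3b (1.66, adjusted p = 0.00599), Ptgds (4.79, adjusted p = 0.0179) and Serpine2 (0.62, adjusted p = 0.0380). Of the 13 genes higher in lambdoid parietal OF, 9 had a negative fitted log2FC there, none of which passed the threshold, among them St3gal1 (log2FC -0.46, adjusted p = 0.0800) and Ap1s2 (-0.55, adjusted p = 0.0909). Sox5 was called higher in frontal OF (log2FC 1.81, adjusted p = 2.61e-05). Chrdl1 had a coronal log2FC of -0.07 (adjusted p = 0.946).

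Levels on a scale shared by 100 captured libraries set these genes beside the other E18.5 regions, as values without a test. Cdh8 had a median of 14.03 CPM in interparietal OF, 3.94 CPM in lambdoid parietal OF and 2.38 CPM in sagittal parietal OF, and a median of 0 in coronal frontal and parietal OF. Emx2 had medians of 4.72 CPM in interparietal OF and 8.33 CPM in frontal suture SM, with 0.289 CPM in lambdoid, 1.12 CPM in sagittal and 0.992 CPM in coronal parietal OF. Chrdl1 had medians of 36.3 CPM in lambdoid, 27.6 CPM in sagittal and 14.04 CPM in coronal parietal OF, and 94.2 CPM in frontal suture OF. Bmp5 was highest in coronal frontal OF, with a median of 17.5 CPM, against 9.13 CPM in interparietal OF. Its medians in parietal OF were 1.08 CPM at the lambdoid, 0.450 CPM at the sagittal and 7.63 CPM at the coronal suture. The coronal parietal level was thus near the interparietal one. No full litter identifier is shared between sutures, although some differ only in their last number, and the part of litter in these levels was not tested.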

How the data were processed

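Read counts per gene were deposited by the authors for each laser-captured library. Per the labels and file headers, reads were trimmed with cutadapt, aligned to mm10 with STAR 2.5.3a and counted with featureCounts 1.6.4 over exons of GENCODE genes, without strand, and multi-mapping or multi-overlapping reads were not counted. RNA was amplified before library construction and no molecular identifiers are named, so intervals cover counting error only. Symbols came from a gene ID table, which matched 55394 of 55487 genes. Second coronal libraries, complete sutures, single cells and a table of the authors' log2 ratios between groups were not used here.

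Counts of the 15 lambdoid E18.5 libraries were fitted with edgeR 4.0.16 (R 4.3.3): TMM scaling, genes with at least 1 CPM in at least 5 libraries, robust quasi-likelihood F test, two-sided, Benjamini-Hochberg over all genes tested, threshold 0.05. Region and replicate number were terms, the number because libraries that share it share a litter identifier. Across genes, deviations from the group means of same-numbered interparietal and parietal libraries had a median correlation of 0.099 (5 pairs, between 0.056 and 0.254). Other-numbered ones had a median of -0.030 (between -0.158 and 0.063). Subtracting group means by itself sets these just below 0 where same-numbered values are positive, so they are no separate reference. SM libraries entered the fit, so they bore on the filter, the scaling and the spread. E16.5, the change between ages and the coronal suture were fitted alike. Each SE of a log2FC is the absolute log2FC divided by the square root of the F statistic. It restates the test and is no separate measure of spread. On simulated data the function recovered 47 of 100 changes of 2-fold and 80 of 100 of 4-fold, with 4 false calls. Changes of 2-fold were thus often missed there. DESeq2 1.42.0 and limma 3.58.1 were alternatives. Named genes were those called in 5 of 5 pairs, at most 12 per direction by size, called list members, and a set given always. Members and lists were chosen with earlier results of these data known. Nothing in the labels says whether same-numbered libraries of different regions are separate animals, so p-values measure the spread between these libraries. Xist, also on the set, had between 0 and 14 counts per library and was not tested.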

Additional observations from a re-analysis of the deposited data

Results flagged for a closer look

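Ptgds in interparietal OF was the 1 level, of 58 groups of 5 libraries checked over the called genes, in which a library lay far from the others. Interparietal library 1 held 33.5 CPM, the next highest 4.51 CPM. Chance alone is set to give such a gap in about 1 group in 20.

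Serpine2 was the 1 gene called at E18.5 whose interparietal to parietal difference changed between the ages in a test of that change, by 1.17 on the log2 scale (adjusted p = 0.0128 with edgeR). It was higher in interparietal OF in 5 of 5 pairs at E18.5 and in 1 of 5 pairs at E16.5.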

How the results depend on the processing

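All 29 called genes kept their direction in each of the alternatives in which they were tested, 29 at most. Each had 1 direction in 5 of 5 pairs, so a kept direction follows largely from their choice. The number of calls moved with the settings. Counts are given as higher in interparietal then in parietal OF, against 16 and 13. Without the replicate block they were 8 and 3, all 11 among the 29 genes. With the 10 front libraries alone they were 23 and 37. With the libraries of all 20 groups, and genes at 1 CPM in over 10% of them, they were 1 and 1 without and 1 and 2 with the replicate block. Total counts in place of TMM gave 36 and 11, no low-count filter 90 and 75, DESeq2 66 and 33, and limma-voom 24 and 28. Median-ratio size factors, 2 other filters and non-robust estimation stayed within 1.5 times. Leaving out 1 pair gave between 3 and 15 and between 2 and 10 calls, and leaving out 1 front library between 6 and 18 and between 3 and 11, lowest without library 1 of either front (6 each) and without interparietal library 3 (3). In fits added after seeing the data, leaving out pairs 1 and 2 gave 0 and 0, and leaving out SM library 3 gave 32 and 35, with all 29 genes kept. The cause was not tested. The change between ages had 2 larger and 7 smaller calls, 1 and 2 without the block, and between 0 and 2 and between 0 and 10 without 1 pair of E18.5, with none without pair 5 (537 and 686 genes at an unadjusted p below 0.05). E16.5 calls, 702 and 513, were 547 and 340 without the block and lay between 235 and 993 and between 90 and 1032 without 1 pair. Coronal calls, 637 and 360, were 536 and 212, and between 367 and 781 and between 121 and 701. Calls near the threshold were lost at high levels too, as for Postn (adjusted p = 0.0422 with edgeR), lost in 13 of 15 such fits.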

Other observations

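Rian, Mirg and Gm24564 lie in an imprinted domain on chromosome 12 that also holds Dlk1, Meg3 and Rtl1. Between the start of Dlk1 and the end of Mirg (chr12:109452823-109749460, mm10), 20 genes were tested. This stretch was chosen after the values of its 3 called genes were seen, its transcripts overlap or are cut from shared precursors, and some passed the low-count filter through SM, so values are given for single genes with no tally. Dlk1, a transmembrane regulator of adipocyte and bone precursors, was at 40.2 CPM in interparietal OF and 23.6 CPM in parietal OF (log2FC 0.70 ± 0.16, adjusted p = 0.0641 with edgeR, higher in 4 of 5 pairs). Rtl1, a retrotransposon-derived gene, had a log2FC of 0.58 ± 0.15 (adjusted p = 0.182), and Meg3, a maternally expressed RNA, one of 0.46 ± 0.17 (adjusted p = 0.533). All of these had higher means in SM than in either front, 139 CPM for Dlk1, 94.1 CPM for Rtl1 and 902 CPM for Meg3.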
